A study of Caenorhabditis elegans with 63 samples.

Results

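The let-7 family of Caenorhabditis elegans was examined as 6 microRNA hairpins chosen by name: let-7, mir-48, mir-84, mir-241, mir-794 and mir-795. They are 6 of the 138 hairpins and 12 of the 276 mature arms in each deposited count table, since both arms of every hairpin were counted. In this family the 5p arm is the main product, and the arm that the files mark with a star (3p*) is its partner strand, most of which is normally discarded. All 12 arms were in both tables.

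A microRNA hairpin is cut out of its primary transcript in the nucleus by Microprocessor, whose catalytic subunit is the RNase III enzyme Drosha (drsh-1), and Dicer then releases the duplex of both arms. The let-7 family microRNAs act in the heterochronic pathway, which times larval development. let-7, the founding member, represses lin-41 at the passage from larva to adult, whereas mir-48, mir-84 and mir-241 act with overlapping function on hbl-1 in earlier larvae. mir-794 and mir-795 are grouped with them by their seed, and less is known of their roles.

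All animals were grown at 20 °C, and total RNA came from whole worms. NEBNext small RNA libraries were made from the wild type and from the drsh-1 alleles cdb328 and cdb330, each as L4 larvae and as Adults (3 libraries per group). They were also made from Adults carrying drsh-1::gfp and tdp-1::mScarlet, called tagged below, with or without drsh-1(null) written after a slash (2 libraries each). A second set used a bias-minimized protocol, with degenerate bases in the adaptors. It holds Adults of the wild type, cdb328 and cdb330 (3 libraries each), and a mir-80 series of 12 groups without a stated stage: wild type, drsh-1(cdb263 cdb328), 5 mir-80 alleles (cdb493, cdb494, cdb495, cdb496 and cdb530), and each allele with a mutant drsh-1. The mutant drsh-1 was cdb263 cdb328 on the first 4 alleles and cdb328 alone on cdb530. The groups of this series had 3 libraries, apart from 2 each for cdb494, cdb495, cdb493 with cdb263 cdb328, and cdb530 with cdb328. The series' design text calls the drsh-1 alleles deletions, and the bases they remove were not used here. The labels do not say whether the replicates were grown apart, and the p-values therefore reflect library-to-library spread that could be technical. Each bias-minimized Adult library bears the name of the NEBNext Adult library of its genotype and replicate number, with a suffix. Both Adult sets may thus come from the same samples, which the labels do not state. NEBNext libraries held 1891780 to 5565918 microRNA reads, bias-minimized Adults 578859 to 2585561, and the mir-80 series 155736 to 2355231. In whole-worm RNA, fewer cells of a type and less RNA per cell cannot be told apart.

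In the WBcel235 annotation the hairpins lie on 3 chromosomes, and none of them overlaps a coding gene. mir-48 (chromosome V, 14364412 to 14364509) and mir-241 (chromosome V, 14366188 to 14366283) are neighbours on the minus strand, 1678 bases apart. mir-795 (chromosome I, 12594569 to 12594657) and mir-794 (chromosome I, 12595690 to 12595773) are neighbours on the plus strand, 1032 bases apart. let-7 (chromosome X, 14744173 to 14744271) and mir-84 (chromosome X, 16022404 to 16022478) are both on the minus strand of the X chromosome. The hairpins have 14 to 23 bases between their annotated arms, with 23 in mir-241 and 21 in let-7 against 14 or 15 in the other 4. The deposited tables carry no coordinates.

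mir-48 was the most abundant member in every group. In wild-type L4 larvae its 5p arm gave 37395 ± 2345 CPM (reads scaled to the library's total of microRNA reads; SD, n = 3) and ranked 7 of 276 arms. let-7 5p followed with 12996 ± 106 CPM, mir-84 5p with 9581 ± 603 CPM and mir-241 5p with 1548 ± 121 CPM, each with n = 3. mir-795 5p and mir-794 5p were rare, at 90.9 ± 8.14 and 29.5 ± 3.16 CPM (SD, n = 3). No neighbours in this order overlapped at L4. In wild-type NEBNext Adults let-7 5p and mir-84 5p overlapped (5138 to 6451 against 5762 to 6661 CPM), as did mir-795 5p and mir-794 5p (14.3 to 27.2 against 15.03 to 23.1 CPM). The 6 main arms together made up 6.16% ± 0.312 of microRNA reads in wild-type L4 larvae, 4.06% ± 0.275 in NEBNext Adults, 2.67% ± 0.0541 in bias-minimized Adults and 4.56% ± 0.615 in the wild type of the mir-80 series (SD, n = 3). Each read is a whole mature arm of 21 to 24 bases, so no length correction was made.

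**Figure D1:**
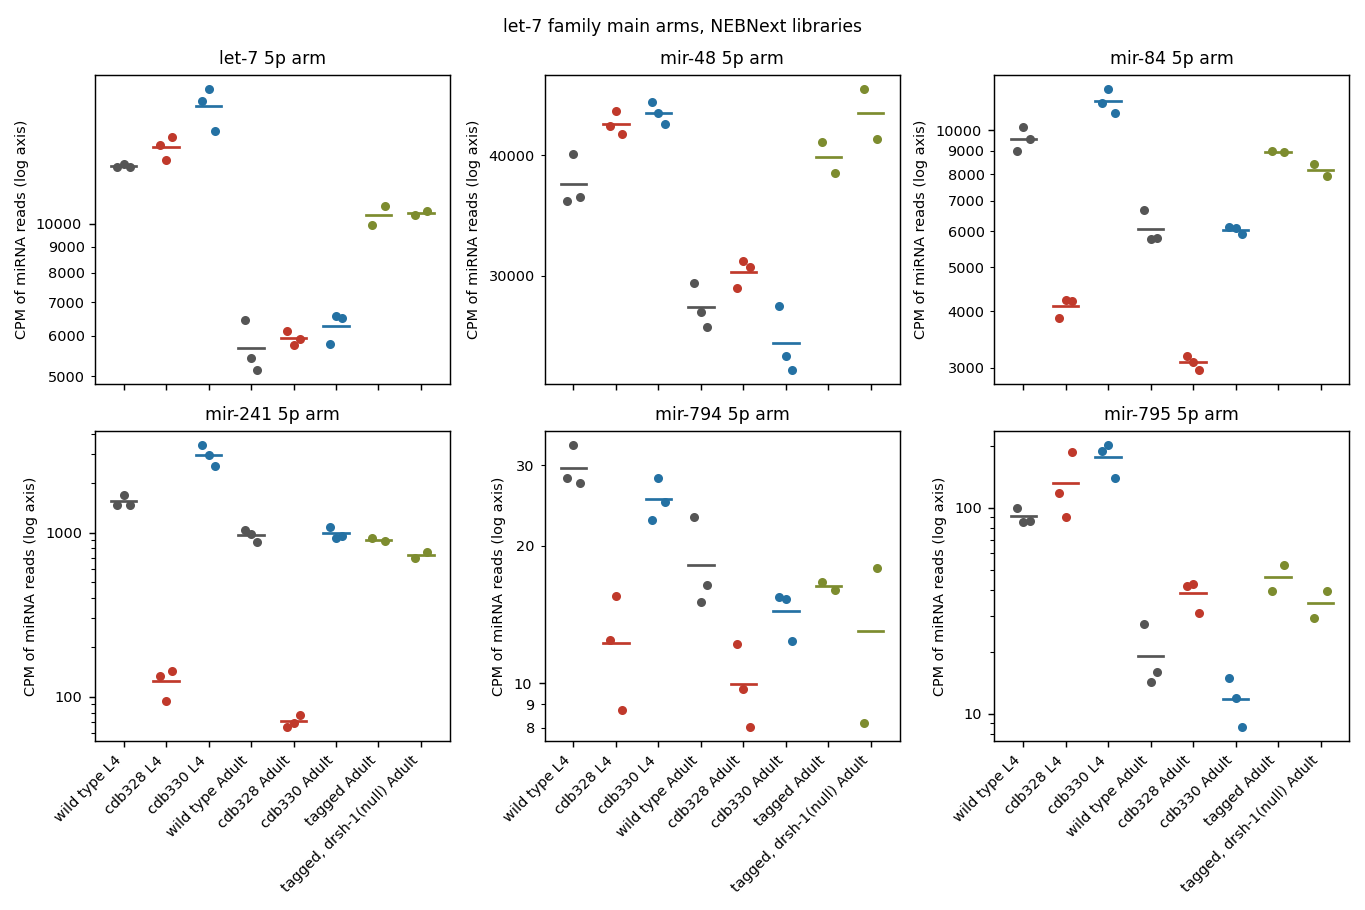
CPM of the 5p arm of each member (log axis) in every NEBNext library; points are libraries, horizontal lines group means, grey wild type, red cdb328, blue cdb330, olive the tagged strains. mir-241 lies between 65.5 and 143 CPM in the 6 cdb328 libraries and at or above 699 CPM in all other libraries, whereas mir-48 and let-7 of the cdb328 L4 larvae lie above the wild type.

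The cdb328 allele was compared with the wild type in 3 sets of libraries to ask how the family's levels differ with the mutant Drosha. mir-241, which acts with mir-48 and mir-84 in the early larva, lost most of both arms in all 3. mir-84 5p fell to 42.8%, 50.8% and 50.6% of the wild-type mean. mir-794 5p fell in the NEBNext libraries, and mir-795 5p rose, though not with every scaling. The main arms of let-7 and mir-48 changed by at most 0.39 on the log2 TMM scale used here. Fold changes are log2 values from edgeR on the TMM scale with their SE, and a change was called at a Benjamini-Hochberg adjusted p below 0.05 over all arms tested. At L4, 9 of 12 family arms were called, 5 lower and 4 higher, where 57.2% of all arms were called (26% lower and 31.2% higher). In NEBNext Adults 6 of 12 were called, 5 lower and 1 higher (49.3% of all arms, 31.2% lower and 18.1% higher). In bias-minimized Adults 9 family arms passed the filter on low counts and 5 were called, 4 lower and 1 higher (49.2% of all arms, 25.1% lower and 24.1% higher). The median log2 fold change of the members was -0.30, -0.11 and -0.44 in these comparisons, beside 0.04, -0.03 and -0.06 over all arms tested. Scaling on the spike-ins shifted the median of all arms by -0.29, -0.15 and -0.51. On that scale 5 family arms were called lower in each comparison, and 0, 1 and 0 higher. Among all arms 65, 70 and 73 were then lower and 15, 23 and 5 higher. The cdb328 and cdb330 comparisons of a set share their wild-type libraries. By their library names, the NEBNext and bias-minimized Adults may share samples, so these sets may not be independent of each other.

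mir-241 5p measured 1480, 1688 and 1476 CPM in the wild-type L4 libraries and 134, 94.5 and 143 CPM in cdb328. In NEBNext Adults it measured 1038, 980.1 and 877 CPM in the wild type and 65.5, 69.4 and 76.8 CPM in cdb328. In bias-minimized Adults the wild type gave 441, 439 and 1151 CPM and cdb328 25.3, 46.8 and 36.3 CPM. No mutant library came near a wild-type one, and cdb328 held 7.998%, 7.31% and 5.34% of the wild-type mean. The log2 fold change was -3.45 ± 0.17 at L4, -3.88 ± 0.18 in NEBNext Adults and -4.09 ± 0.48 in bias-minimized Adults (edgeR adjusted p 8.96e-15, 2.15e-15 and 0.000472). The third wild-type library of the bias-minimized set stood apart from its fellows, and without it the fold change was -3.44 with an adjusted p of 0.000516. The star arm moved alike: mir-241 3p* measured 290, 278 and 265 CPM in the wild-type L4 libraries and 22.9, 22.8 and 24.7 CPM in cdb328. Its log2 fold change was -3.38 ± 0.18, -3.27 ± 0.20 and -3.91 ± 0.29 in the same 3 comparisons.

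mir-84, which in Caenorhabditis elegans also represses the Ras gene let-60, fell in both arms. mir-84 5p measured 8978, 10184 and 9580 CPM in the wild-type L4 libraries and 3863, 4232 and 4218 CPM in cdb328. In NEBNext Adults it measured 6661, 5762 and 5797 CPM against 3193, 3088 and 2967 CPM. The groups did not overlap at either stage. The log2 fold change was -1.04 ± 0.11 at L4, -1.09 ± 0.11 in NEBNext Adults and -0.86 ± 0.10 in bias-minimized Adults (adjusted p 1.01e-08, 4.84e-09 and 0.000472). mir-84 3p* measured 98.6, 125 and 109 CPM in the wild-type L4 libraries and 17.7, 23.0 and 24.7 CPM in cdb328, a log2 fold change of -2.16 ± 0.17. It fell by 1.72 in NEBNext Adults and by 1.61 in bias-minimized Adults.

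mir-794, the rarest main arm at L4, rests on few reads. Its 5p arm had 68, 94 and 60 reads in the wild-type L4 libraries and 26, 34 and 22 in cdb328, or 28.1, 33.2 and 27.4 against 12.4, 15.5 and 8.76 CPM. The groups did not overlap, and the log2 fold change was -1.10 ± 0.24 (adjusted p 0.000363). In NEBNext Adults it was -0.998 ± 0.26 (adjusted p 0.00268). In bias-minimized Adults it was -0.23 ± 0.28 (adjusted p 0.588), with 11 to 33 reads per wild-type library and 5 to 22 per cdb328 library. mir-794 3p*, with 9 to 19 reads per L4 library, did not pass at L4 (0.06 ± 0.35) or in NEBNext Adults (-0.16 ± 0.38).

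mir-795, the neighbour of mir-794, was higher in cdb328 on the TMM scale. mir-795 5p measured 27.2, 14.3 and 16.0 CPM in the wild-type NEBNext Adults and 41.8, 42.9 and 30.8 CPM in cdb328. In bias-minimized Adults it measured 14.8, 12.6 and 12.5 CPM against 19.8, 30.2 and 24.2 CPM. The groups did not overlap in either set of Adults, but at L4 they did (85.7 to 100.3 against 89.9 to 186 CPM). The log2 fold change was 0.73 ± 0.24 at L4, 0.87 ± 0.30 in NEBNext Adults and 1.02 ± 0.20 in bias-minimized Adults (adjusted p 0.0118, 0.0172 and 0.0049). In NEBNext Adults the adjusted p rose to 0.103 without wild-type replicate 2, 0.0549 without wild-type replicate 3 and 0.0730 without cdb328 replicate 2. With spike-in scaling no family arm was called higher at L4 or in bias-minimized Adults, so the rise of mir-795 5p did not pass there. mir-795 3p* changed by 0.94 ± 0.31 at L4 (adjusted p 0.0123) and by 1.09 ± 0.49 in Adults, where the adjusted p was 0.0656.

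let-7 and mir-48, the most abundant members at L4, were not called lower in cdb328. let-7 5p measured 12942, 13117 and 12927 CPM in the wild-type L4 libraries and 14320.3, 13327 and 14835 CPM in cdb328. mir-48 5p measured 35909, 40098 and 36177 CPM in the wild type and 42916, 44452 and 42096 CPM in cdb328. Both sets of cdb328 libraries lay above the wild-type ones. At L4 the log2 fold change was 0.31 ± 0.12 for let-7 5p (adjusted p 0.0292) and 0.39 ± 0.10 for mir-48 5p (adjusted p 0.00264). In NEBNext Adults the changes were -0.05 ± 0.12 and 0.02 ± 0.10 (adjusted p 0.768 and 0.917), and in bias-minimized Adults 0.10 ± 0.14 and 0.16 ± 0.06 (adjusted p 0.641 and 0.0521). The 4 rises at L4 (let-7 5p, mir-48 5p and both arms of mir-795) did not pass when libraries were scaled on the plant spike-ins or when wild-type L4 replicate 1 or 2 was left out, which leaves 5 arms called each time, all of them lower.

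With mir-241 and mir-84 reduced, the summed share of the 6 main arms was 6.17% ± 0.0458 of microRNA reads in cdb328 at L4 and 3.94% ± 0.0733 in NEBNext Adults (SD, n = 3), close to the wild type. In bias-minimized Adults it was 2.41% ± 0.210 (SD, n = 3), and every cdb328 library (2.19% to 2.60%) lay below every wild-type one (2.63% to 2.73%). In the mir-80 series the share with a mutant drsh-1 overlapped its control except on cdb495. There it was 2.75% to 3.34% with cdb263 cdb328 against 4.46% and 4.54%. The composition of the family differed: mir-48 made up 60.6% ± 0.763 of the family in wild-type L4 larvae and 70.0% ± 1.49 in cdb328, whereas mir-84 made up 15.5% ± 0.400 and 6.65% ± 0.311. mir-241 made up 2.51% ± 0.0722 and 0.201% ± 0.0432 (SD, n = 3).

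**Figure D2:**
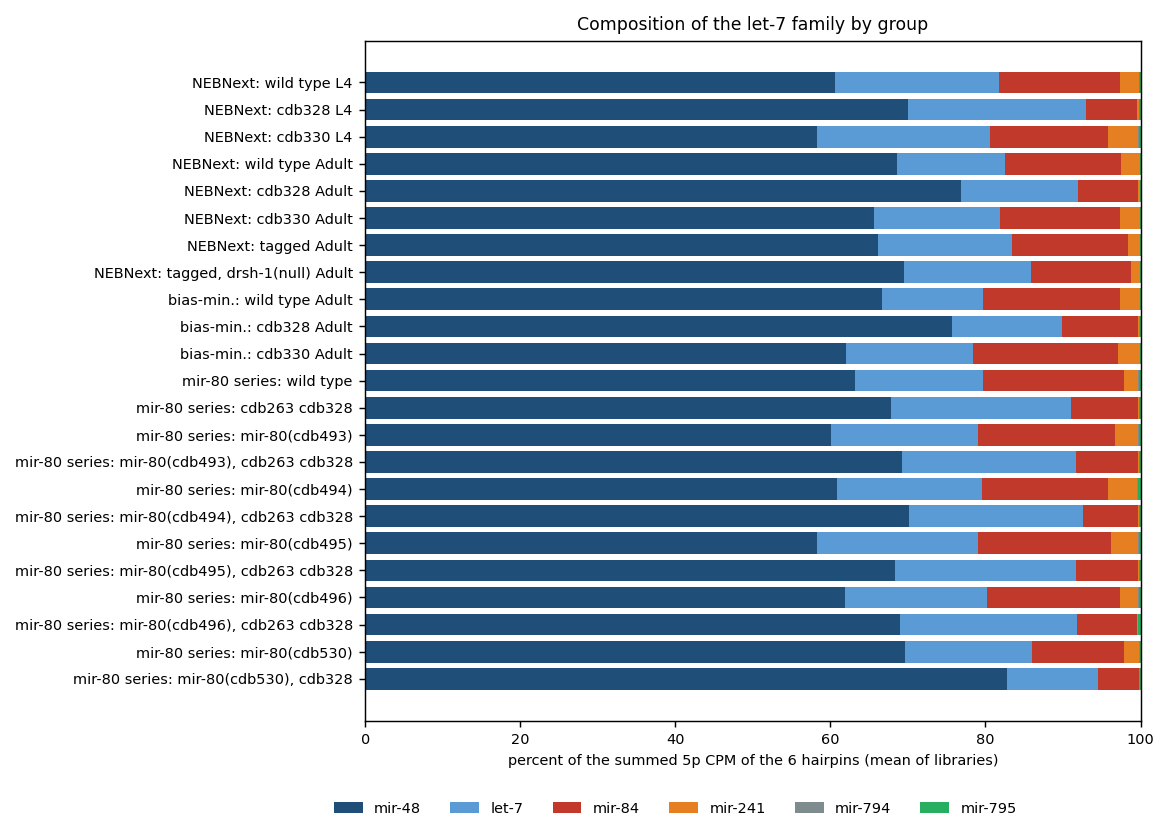
Mean share of each member in the summed CPM of the 6 main arms (horizontal axis, percent), 1 bar per group. In the groups with cdb328 or cdb263 cdb328 the mir-84 and mir-241 segments are shorter and the mir-48 segment longer than in their controls: at L4, mir-48 takes 70.0% of the family in cdb328 and 60.6% in the wild type.

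The mir-80 series gave 6 further comparisons of a drsh-1 genotype with cdb328 against a control with the same mir-80 allele. Of the 12 family arms, 10 passed the filter. drsh-1(cdb263 cdb328) lowered 5 of 10 arms against the wild type (20.8% of all arms called, 15.5% lower): mir-241 and mir-84 with their star arms, and mir-794 5p. These 5 arms were also lower on cdb493 (18.4% of all arms called, 14% lower), cdb494 (19.8%, 16.4% lower), cdb495 (24.2%, 17.4% lower) and cdb496 (19.3%, 15.9% lower), with no other family arm called. On cdb530 the same 5 fell with cdb328, and mir-48 3p* rose by 0.73 ± 0.25 (30% of all arms called, 16.9% lower and 13% higher). When each of the 5 libraries on cdb530 was left out in turn, the rise of mir-48 3p* and the fall of mir-84 3p* each missed the threshold in 4 of 5 fits. Over all 9 comparisons with cdb328, the log2 fold change of mir-241 5p ranged from -5.15 to -3.45, that of mir-241 3p* from -5.54 to -3.27, that of mir-84 5p from -1.41 to -0.86 and that of mir-84 3p* from -2.16 to -1.30. These 4 arms were called lower in 9 of 9 comparisons and mir-794 5p in 8 of 9. In a single comparison 14% to 31.2% of all arms were called lower. How many arms outside the family were lower in as many comparisons was not counted. Among the 9, the NEBNext and bias-minimized Adults may share samples. The largest folds of mir-241 3p* are imprecise, since its mutant libraries in the mir-80 series held 0 to 9 reads, with 1 library at 0 on cdb494 and 1 on cdb495. Some calls in that series were lost under an alternative. mir-84 3p* missed the threshold on cdb493 without the first mutant library (adjusted p 0.165), on cdb494 without the first cdb494 library (0.159) and on cdb496 when only the groups compared were fitted (0.0546). mir-84 5p missed it on cdb494 with spike-in scaling (0.0576), and mir-794 5p on cdb530 without cdb328 replicate 2 (0.0764). No family arm was called higher in more than 3 of the 9.

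In this series mir-241 5p measured 754, 915 and 817 CPM in the wild type and 45.7, 48.9 and 60.6 CPM in cdb263 cdb328, a log2 fold change of -4.02 ± 0.40 (adjusted p 4.66e-08). mir-794 5p measured 36.9, 44.5 and 29.6 CPM in the wild type and 6.38, 8.74 and 5.71 CPM in the mutant, a log2 fold change of -2.48 ± 0.30 (adjusted p 1.19e-06). The groups did not overlap for either arm. Between 2 and 10 reads of mir-794 5p stood behind each mutant library of the series. Over the 6 comparisons the change of mir-794 5p ranged from -2.81 to -2.002, against -1.10, -0.998 and -0.23 at L4, in NEBNext Adults and in bias-minimized Adults. The last share the protocol of the series, whose stage is not given, and the difference was not tested. mir-795 5p did not pass in any of the 6 (-0.64 to 0.66). let-7 5p (-0.38 to 0.34) and mir-48 5p (-0.07 to 0.32) did not pass either. The effect of cdb263 cdb328 on cdb493, cdb494, cdb495 or cdb496 differed from its effect on wild-type mir-80 for 0 of 10 family arms in each case by edgeR (0.483%, 0%, 0.966% and 0.966% of all arms called). DESeq2 also called 0, and 1 family arm had an unadjusted p below 0.05, mir-241 5p on cdb495 (-1.13 ± 0.53). On cdb494, 1 arm was called when only the 5 libraries compared were fitted. On cdb530, 3 arms were called when cdb328 replicate 2 was left out, and mir-84 3p* then had an adjusted p of 0.0825.

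**Figure D3:**
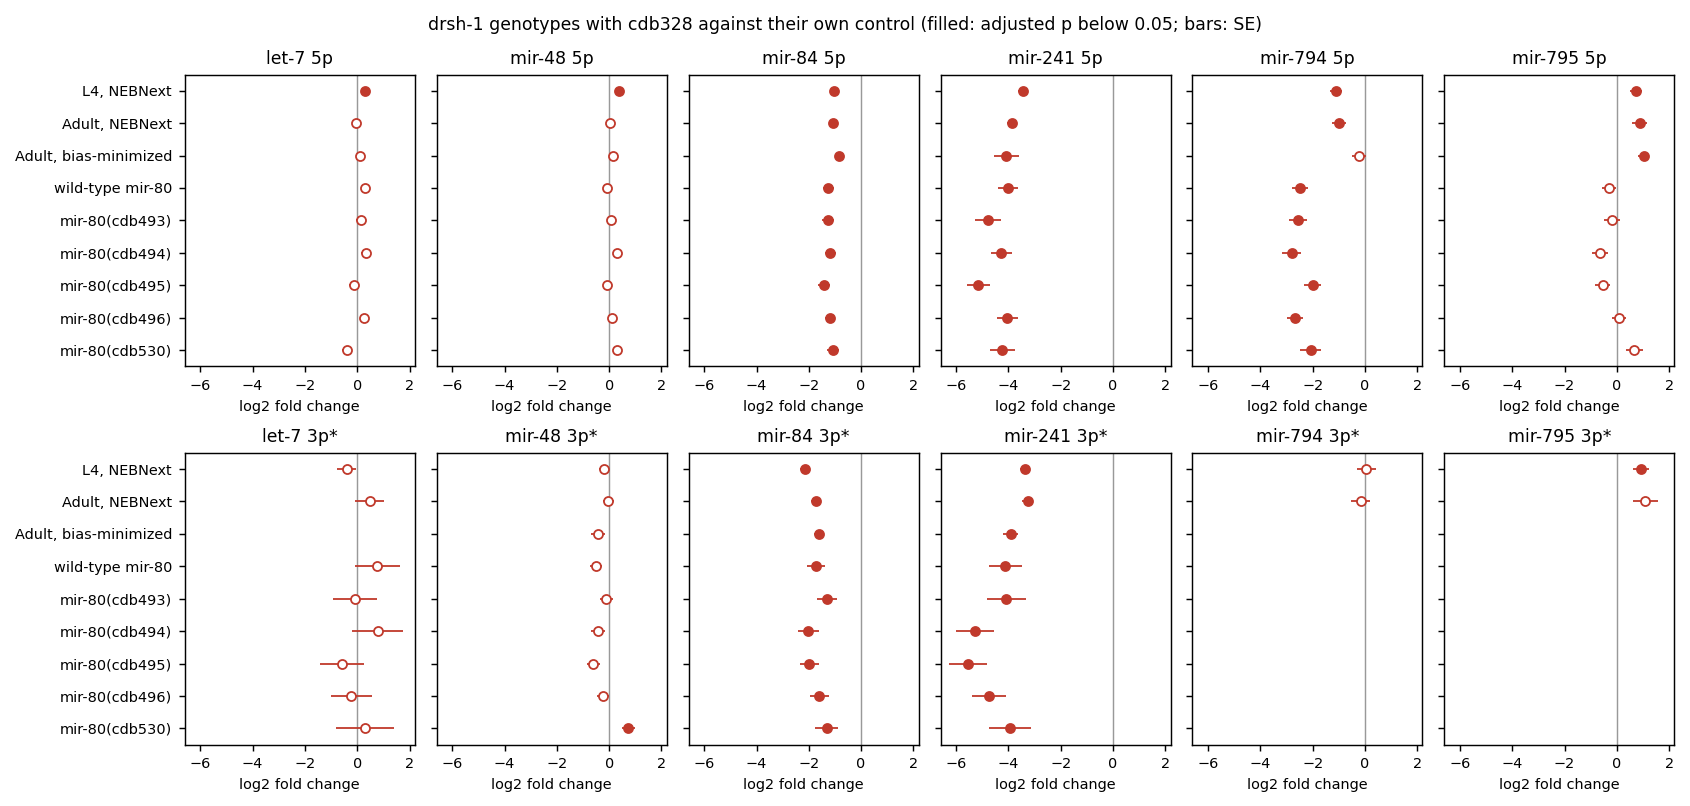
log2 fold change (horizontal axis; bars, SE) of each 5p arm (upper row) and 3p* arm (lower row) in 9 comparisons of a drsh-1 genotype with cdb328 against its control; filled points have an adjusted p below 0.05, and arms that did not pass the filter have no point. Both arms of mir-241 (-5.54 to -3.27) and mir-84 (-2.16 to -0.86) lie left of 0 in all rows, and let-7 5p and mir-48 5p lie near 0.

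**Figure D4:**
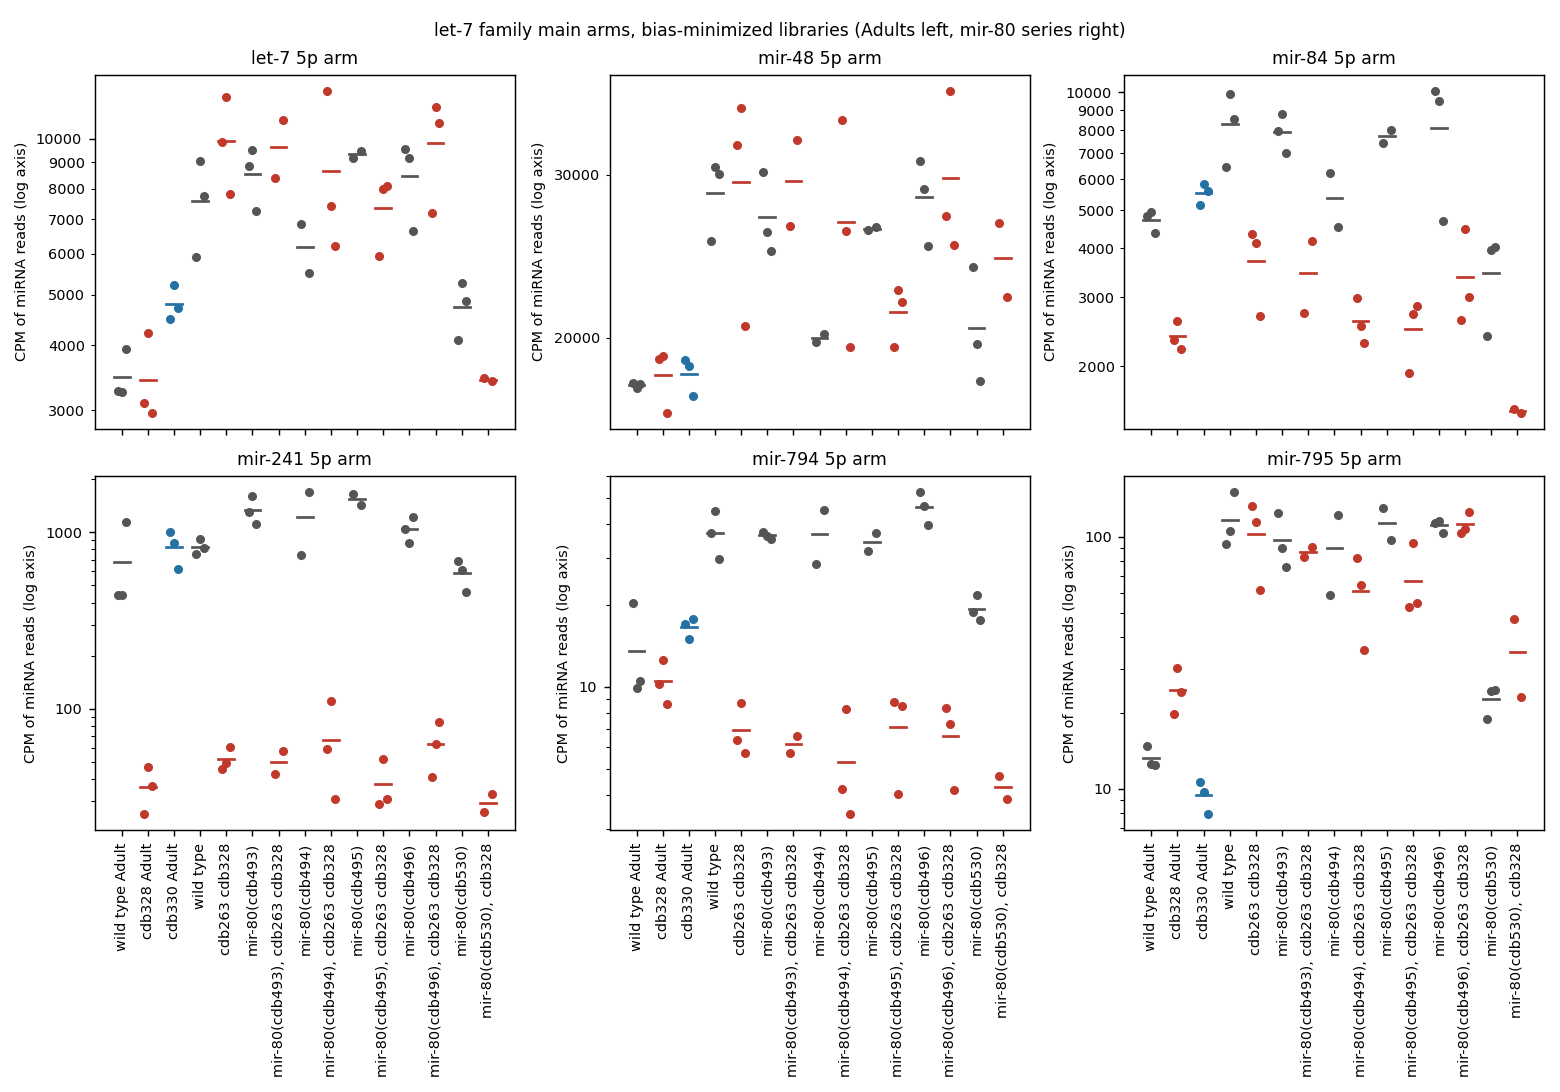
CPM of each 5p arm (log axis) in every bias-minimized library; points are libraries, lines group means, red groups carry cdb328 or cdb263 cdb328, blue cdb330, grey neither. mir-241 of the red groups lies between 25.3 and 110.1 CPM and that of the others between 439 and 1695 CPM.

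Ratios within a library, taken here on reads + 1, do not depend on the scaling between libraries. At low counts the added read weighs on them, and so does a library's depth. The log2 ratio of mir-241 5p to its neighbour mir-48 5p was -4.60 ± 0.0232 in wild-type L4 larvae and -8.46 ± 0.360 in cdb328 (SD, n = 3), a difference of -3.87. It was lower without overlap in all 9 comparisons with cdb328, with differences of -5.07 to -3.87. The ratio of mir-794 5p to its neighbour mir-795 5p was -1.61 ± 0.233 in wild-type L4 larvae and -3.35 ± 0.932 in cdb328 (SD, n = 3), and it too was lower without overlap in all 9, with differences of -2.58 to -1.12. Such shifts were not limited to cdb328. The ratio of mir-794 to mir-795 was also lower without overlap in cdb330 at L4 (-1.16) and in tagged Adults (-1.43), and it was higher without overlap in bias-minimized cdb330 Adults (0.82). The ratio of mir-241 to mir-48 was lower without overlap in tagged Adults against the wild type (-0.61) and in tagged Adults with drsh-1(null) against tagged ones (-0.46), and higher in cdb330 at L4 (0.69) and in NEBNext Adults (0.16). None of these ratio differences was tested. Ratios of arms outside the family were not computed, so how common such shifts without overlap are is not known.

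The ratio of the arms of 1 hairpin was taken as log2((5p + 1)/(3p* + 1)) reads. For mir-84 it was 6.43 ± 0.0817 in wild-type L4 larvae and 7.54 ± 0.176 in cdb328, 7.04 ± 0.119 and 7.65 ± 0.184 in NEBNext Adults, and 7.47 ± 0.141 and 8.09 ± 0.359 in bias-minimized Adults (SD, n = 3). The groups did not overlap in these 3 comparisons, and the two-sided exact permutation p was 0.1 in each, the smallest that 3 against 3 allows. cdb330 also raised the mir-84 ratio without overlap at L4 (by 0.19) and in bias-minimized Adults (by 0.56), though not in NEBNext Adults, where it changed by -0.0042. Tagged Adults were higher than the wild type without overlap too, by 0.30. In the mir-80 series the mir-84 ratio overlapped its control in 5 of 6 comparisons with cdb328, with differences of -0.037 to 0.51, and only on cdb494 was it higher without overlap, by 0.71 (exact permutation p 0.2 with 3 and 2 libraries). For mir-241 the ratio differed by -0.12, -0.58 and -0.32 in the 3 cdb328 comparisons, with overlap each time (exact permutation p 0.7, 0.3 and 0.5). Without the third wild-type library of the bias-minimized set, which stood apart for mir-241, the last difference was 0.077. In the mir-80 series the mir-241 ratio was lower without overlap on cdb493 and cdb530 and higher without overlap on cdb494. It overlapped its control on cdb495, cdb496 and wild-type mir-80. Tagged Adults were higher than the wild type without overlap. Over 14 comparisons of a genotype with its control, the mir-241 difference ranged from -0.89 to 0.71. For mir-48 the arm ratio was higher in cdb328 by 0.62 at L4, 0.05 in NEBNext Adults and 0.58 in bias-minimized Adults. The NEBNext Adults overlapped. Over the 14 comparisons the mir-48 difference ranged from -0.41 to 0.77, with 5 higher and 1 lower without overlap. The higher ones also include tagged Adults against the wild type, and cdb263 cdb328 on wild-type mir-80 and on cdb495. The lower one was cdb330 in NEBNext Adults. Of 66 such tests none could pass 0.05, since the smallest exact permutation p with these group sizes is 0.1. The lowest Benjamini-Hochberg adjusted value of these exact permutation tests was 0.528, and they decide nothing about the arm ratios. Arm ratios of hairpins outside the family were not computed, so the counts without overlap have no share over all hairpins beside them.

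**Figure D5:**
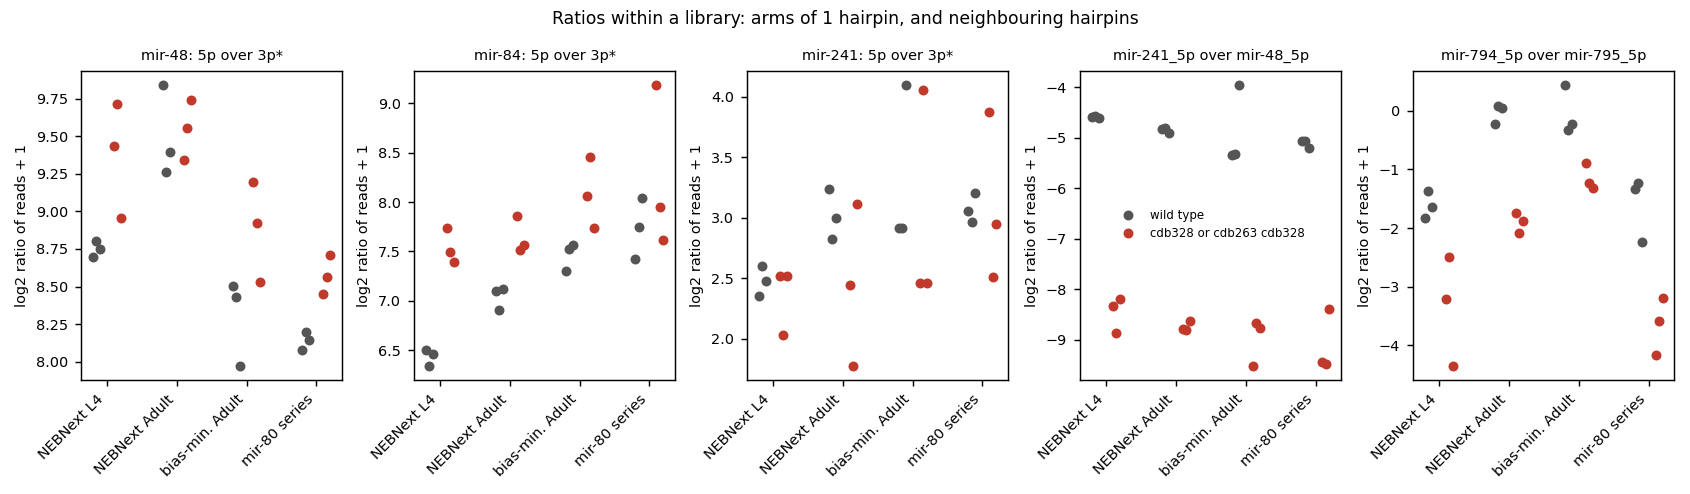
log2 ratio of reads + 1 (vertical axis) in wild-type (grey) and cdb328 or cdb263 cdb328 (red) libraries: 5p over 3p* of mir-48, mir-84 and mir-241, then mir-241 5p over mir-48 5p and mir-794 5p over mir-795 5p. The neighbour ratios are lower in every mutant library than in any wild-type library of the same set. Mean differences are -4.10 to -3.87 for mir-241 over mir-48, while the arm ratio of mir-241 overlaps in every set shown.

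The cdb330 allele was compared with the wild type in the same sets. At L4 it raised 4 of 12 family arms and lowered none (30.7% of all arms called, 20.5% lower and 10.2% higher): mir-241 5p and 3p*, mir-795 5p and let-7 3p*. In NEBNext Adults edgeR called 0 of 12 (7.44% of all arms, 4.65% lower and 2.79% higher) and in bias-minimized Adults 0 of 9 (0.524%). DESeq2 called 0 and 1 there, the 1 being let-7 5p, and 2 and 1 family arms had an unadjusted p below 0.05. mir-241 5p measured 3403, 2972 and 2550 CPM in the cdb330 L4 libraries, all above the wild type, a log2 fold change of 0.84 ± 0.15 (adjusted p 0.000124). mir-241 3p* rose by 0.73 ± 0.15 with 502, 523 and 464 CPM (adjusted p 0.000419). mir-795 5p measured 188, 201 and 139 CPM, again without overlap, a rise of 0.85 ± 0.23 (adjusted p 0.00681). The rise of let-7 3p* (0.86 ± 0.30, adjusted p 0.033) rested on cdb330 replicate 2, which had 84 reads against 35 and 37.5 in its fellows, and without it the change was 0.39 with an adjusted p of 0.371. It also missed the threshold without wild-type replicate 3 (adjusted p 0.121). let-7 5p, at 17441, 18479 and 15246 CPM, lay above the wild type in all 3 libraries, but the change of 0.29 ± 0.12 did not pass (adjusted p 0.0665). The members' median was 0.23 beside -0.01 over all arms. With total-count scaling 7 family arms passed and with spike-in scaling 10, all higher. On these scales 34 and 126 of all 215 arms were higher, and the spike-ins shifted the median of all arms by 0.64.

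Set against each other, cdb328 and cdb330 differed by -4.29 ± 0.17 on the log2 scale for mir-241 5p at L4. There 7 of 12 family arms were called, 6 lower and 1 higher (62.3% of all arms, 27% lower and 35.3% higher). The higher arm was mir-48 5p, whose libraries overlapped in CPM (42096 to 44452 in cdb328 against 43111 to 45420 in cdb330). With DESeq2 size factors, total counts or spike-ins no family arm was called higher. In NEBNext Adults 6 of 12 were called, 4 lower and 2 higher (40.9%, with 23.7% lower and 17.2% higher), the higher ones being mir-795 5p (1.60 ± 0.32) and mir-795 3p* (1.87 ± 0.55). In bias-minimized Adults 5 of 9 were called, 4 lower and 1 higher (36.1%, with 18.8% lower and 17.3% higher), and mir-795 5p was higher in cdb328 by 1.53 ± 0.20 (adjusted p 0.00113).

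Wild-type Adults were compared with wild-type L4 larvae. Among the 12 family arms 7 were lower and none higher (67% of all arms called, 38.1% lower and 28.8% higher), with a members' median of -0.65 beside -0.27 over all arms. let-7 5p measured 6451, 5434 and 5138 CPM in the Adults against 12942, 13117 and 12927 CPM at L4, a log2 fold change of -0.65 ± 0.12 (adjusted p 5.94e-05). mir-795 5p fell by 1.68 ± 0.28 (adjusted p 1.67e-05) and its star arm by 1.61 ± 0.43. The star arms of let-7, mir-48, mir-84 and mir-241 fell by 1.60, 0.65, 0.73 and 0.69. The main arms of mir-48 (0.11 ± 0.10), mir-84 (-0.11 ± 0.10), mir-241 (-0.14 ± 0.15) and mir-794 (-0.15 ± 0.22) did not pass on the TMM scale. With total counts, which move the median of all arms by -0.53, and with the spike-ins, which move it by -0.77, 11 of 12 family arms were lower, beside 130 and 147 of all 215 arms, and mir-48 5p then changed by -0.43 and -0.64. CPM is on the total-count scale, on which mir-48 5p fell from 37395 ± 2345 to 27807 ± 1496 CPM (SD, n = 3). lin-4 and mir-237, the lin-4 family of heterochronic microRNAs, fell as well: all 3 of their arms that passed the filter were lower, lin-4 5p by 0.78 ± 0.10.

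Within cdb328, 7 of 12 family arms were lower in Adults and none higher (47.4% of all arms, 31.2% lower and 16.3% higher), among them let-7 5p (-1.01 ± 0.12), mir-795 5p (-1.54 ± 0.26) and mir-241 5p (-0.56 ± 0.17). This count was less firm: leaving out 1 library gave 3 to 6, with 4 without L4 replicate 1, 3 without L4 replicate 3, 4 without Adult replicate 1 and 4 without Adult replicate 3. Within cdb330, 8 of 12 were lower (70.2% of all arms, 36.7% lower and 33.5% higher), and mir-795 5p, at 14.97, 11.9 and 8.66 CPM in Adults, had a log2 fold change of -3.26 ± 0.29 from L4. All 3 lin-4 family arms tested were lower in both mutants.

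Whether an allele acted differently at the stages was tested as an interaction. For cdb328 edgeR and DESeq2 called 0 of 12 family arms (3.26% of all arms by edgeR, 2.33% lower and 0.93% higher), and let-7 5p and mir-48 5p had an unadjusted p below 0.05. For cdb330 the effect in Adults was below that at L4 for 2 of 12 (16.3% of all arms, 6.05% lower and 10.2% higher): mir-241 5p differed by -0.82 ± 0.21 (adjusted p 0.00688) and mir-795 5p by -1.58 ± 0.41 (adjusted p 0.008). In Adults mir-241 5p measured 1083, 926 and 955.0 CPM in cdb330, overlapping the wild type, and its log2 fold change was 0.02 ± 0.15. mir-795 5p changed by -0.73 ± 0.34 there (adjusted p 0.207). Without wild-type Adult replicate 1, in which mir-795 5p was 27.2 CPM against 14.3 and 16.0 CPM, the mir-795 5p difference was -1.13 with an adjusted p of 0.0786, and 1 family arm was called; without replicate 3 there were 4.

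Tagged Adults were compared with wild-type Adults, with 2 and 3 libraries. Among the 12 family arms 4 main arms were higher and mir-241 3p* was lower (32.1% of all arms called, 20.9% lower and 11.2% higher). let-7 5p measured 9952 and 10841 CPM in the tagged libraries, above all wild-type Adults, a log2 fold change of 0.89 ± 0.13 (adjusted p 1.51e-05). mir-795 5p was higher by 1.26 ± 0.29, mir-84 5p by 0.58 ± 0.11 and mir-48 5p by 0.54 ± 0.12. mir-241 5p did not pass (-0.07 ± 0.16), and the fall of mir-241 3p* by 0.48 ± 0.16 missed the threshold without wild-type replicate 2 (adjusted p 0.219) or tagged replicate 1 (0.232). Tagged libraries were the deepest, and the spike-in scale moved the median of all arms in this comparison by 2.05, and on it all 12 family arms were higher, as were 200 of all 215 arms. How much spike-in RNA was added is not stated. The part of depth and spike-in in these differences was not tested. Among the 3 lin-4 family arms tested, both mir-237 arms were higher. Tagged Adults with drsh-1(null) after the slash, set against tagged Adults, gave 0 of 12 family arms called by edgeR and by DESeq2. By edgeR 4.19% of all arms were called, 0.465% lower and 3.72% higher, and no family arm had an unadjusted p below 0.05. The label with drsh-1(null) still names drsh-1::gfp, so these animals are not taken here as lacking Drosha. mir-241 5p, at 699 and 761 CPM against 926 and 886 CPM, was lower in both libraries, with a log2 fold change of -0.25 ± 0.18 (adjusted p 0.53).

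The mir-80 alleles were compared with the wild type with drsh-1 intact, sharing the wild-type libraries. For cdb493, cdb494, cdb495 and cdb496, edgeR and DESeq2 called 0 of 10 family arms each (0.966%, 0.966%, 5.8% and 0.966% of all arms by edgeR), with 0, 2, 1 and 0 at an unadjusted p below 0.05. For cdb530 2 arms were lower (12.6% of all arms, 8.21% lower). mir-795 5p measured 18.9, 24.5 and 24.8 CPM in cdb530 and 93.7, 105.6 and 151 CPM in the wild type, without overlap, a log2 fold change of -2.05 ± 0.29 (adjusted p 2.92e-05). mir-84 5p measured 2392, 3946 and 4024 CPM against 6459, 9921 and 8560.3 CPM, a fall of 0.99 ± 0.21 (adjusted p 0.00192). let-7 5p, at 4102, 5266 and 4876 CPM, lay below the wild type (5908 to 9068 CPM), but its change of -0.39 ± 0.17 did not pass (adjusted p 0.112). The stage of these libraries is not given, and mir-795 5p in cdb530 lay nearer to the wild-type Adults of the same protocol (12.5 to 14.8 CPM) than to the other mir-80 groups with intact drsh-1 (59.1 to 151 CPM); whether stage differs was not tested.

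Across group means the members fell into 2 patterns, given here as a description of log2 CPM over 8 NEBNext and 15 bias-minimized groups that share protocols and libraries' depth. These groups include those with cdb328, so the correlations partly restate the falls given above. mir-84, mir-241 and mir-794 followed each other, with Pearson's r of 0.93 and 0.89 for mir-84 and mir-241, and 0.82 and 0.92 for mir-241 and mir-794. let-7, mir-48 and mir-795 followed each other, with r of 0.89 and 0.81 for let-7 and mir-48, and 0.89 and 0.84 for let-7 and mir-795. Between the neighbours mir-48 and mir-241 r was 0.12 and -0.11, and between mir-794 and mir-795 it was 0.39 and 0.21. The split was not sharp: the highest r between the patterns was that of let-7 and mir-84, at 0.55 and 0.39. Among 146 arms outside the family with at least 10 CPM in both tables, the most like mir-241 5p were mir-54 5p* (r of 0.986 and 0.977), mir-54 3p (0.976 and 0.989) and mir-71 3p* (0.968 and 0.973). The most like mir-84 5p were mir-73 3p (0.922 and 0.921), mir-1817 5p and mir-54 5p*. For let-7 5p they were mir-235 3p (0.895 and 0.879), mir-799 3p and mir-59 3p, and for mir-48 5p mir-1829b 3p* (0.912 and 0.811), mir-81 3p and mir-56 3p.

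In cdb328 the lin-4 family main arms changed little. lin-4 5p, which acts before let-7 in the same pathway by repressing lin-14 and lin-28, did not pass at L4 (0.19 ± 0.10), in NEBNext Adults (0.03 ± 0.10) or in bias-minimized Adults (0.08 ± 0.08). The mir-237 main arm rose by 0.30 ± 0.11 at L4 and by 0.34 ± 0.12 in bias-minimized Adults, and its star arm fell by 0.68 ± 0.22 at L4. lin-4 3p* fell by 2.28 ± 0.33 in bias-minimized Adults, where it was tested. Of the 3 or 4 arms tested, 1 was lower and 1 higher at L4, 0 in NEBNext Adults, 1 lower and 1 higher in bias-minimized Adults, and 0 for cdb263 cdb328 against the wild type. lin-4 3p* was also called lower with cdb263 cdb328 on cdb494 (-1.66 ± 0.58, adjusted p 0.0433) and on cdb495 (-1.58 ± 0.55, adjusted p 0.0422), but no lin-4 family arm was called on cdb493 or cdb496, or with cdb328 on cdb530.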

How the data were processed

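The authors' deposited values per microRNA arm and spike-in were taken here as estimated counts (expected counts) that were not normalized, since library totals differ. The NEBNext table is headed as raw reads, and the bias-minimized table states no unit. The submitters' processing notes name HTSeq without a version, and aligner, genome build and read filters were not stated. Most values are whole, but 4.64% (NEBNext) and 1.42% (bias-minimized) lie midway between whole numbers, so all were rounded. How reads shared by similar arms were counted is not known, and each member is uncertain to that extent.

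Groups came from the labels. No pair of replicates agreed within sampling noise (lowest chi-square per degree of freedom 19.5 over 57 pairs). edgeR 4.0.16 (R 4.3.3, limma 3.58.1) fitted all arms with TMM on the microRNAs, filterByExpr (at least 10 reads, total of 15), glmQLFit and glmQLFTest, with Benjamini-Hochberg adjustment at 0.05. The fits used 18 NEBNext libraries of the wild type, cdb328 and cdb330 (215 arms), all 22 NEBNext libraries (215; tagged strains), 9 bias-minimized Adults (191) and 32 libraries of the mir-80 series (207). The SE is that implied by the F statistic. CPM is relative to the microRNA reads of a library. The arm ratio used a pseudocount of 1 and exact permutation tests (scipy 1.17.1). The fitting code was tested on simulated data.

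Alternatives were DESeq2 size factors, total counts, scaling on 10 plant spike-ins, DESeq2 1.42.0 (Wald test), no filter on low counts, only the groups compared, the replicate number as a block, leaving out arms of very wide range within groups (20 arms, none of the family) and leaving out each library. Same-numbered bias-minimized Adult libraries deviated together (all 9 pairs, r from 0.103 to 0.809). This is a hint from the data that their numbers may pair the libraries, which the labels do not state. The pairs share libraries, and replicate 3 was also the shallowest library of each of these groups. The fits reported above used no block. In the other fits 7 of 45, 16 of 71 and 48 of 160 pairs exceeded r = 0.1, and the numbers were not taken as pairs.

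Named microRNAs are the members, both arms of lin-4 and mir-237, and the 3 arms most like let-7, mir-48, mir-84 and mir-241 5p by the lower of 2 correlations of group-mean log2(CPM + 1). Members and lists were chosen with earlier results of these data known.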

Additional observations from a re-analysis of the deposited data

Results flagged for a closer look

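The effect of cdb330 differed between the stages for 2 family arms by a test of the difference itself, in which the wild type and cdb330 at L4 and as Adults entered 1 contrast (edgeR's quasi-likelihood test, 12 NEBNext libraries of 18 in the fit). For mir-241 5p the Adult effect minus the L4 effect was -0.82 ± 0.21 on the log2 scale (adjusted p 0.00688). It kept its sign and passed when any 1 of these 12 libraries was left out, between -1.12 and -0.69. For mir-795 5p the difference was -1.58 ± 0.41 (adjusted p 0.008), and it missed the threshold without wild-type Adult replicate 1 (-1.13, adjusted p 0.0786). Adult libraries held 21 to 73 reads of mir-795 5p in these genotypes, against 190 to 508 at L4. No cause was tested.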

How the results depend on the processing

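Of 31 counts of called family arms, those that moved by over 1.5 times under an alternative were these. Spike-in scaling gave 5 for cdb328 at L4 (9 as reported), 10 for cdb330 at L4 (4), 11 for wild-type Adult against L4 (7), 7 for the stage difference of cdb330 (2), 12 for tagged (5), 5 for tagged with drsh-1(null) (0) and 9 for cdb328 against cdb330 in bias-minimized Adults (5). The last 4 stand beside 56 lower and 14 higher, 2 lower and 200 higher, 67 lower and 0 higher, and 104 lower and 2 higher among all arms, with median shifts of -0.58, 2.05, -0.69 and -0.78. Total counts gave 7 for cdb330 at L4 and 11 for wild-type Adult against L4. For Adult against L4 in cdb328 (7), DESeq2 size factors gave 3, no filter 4, DESeq2's Wald test 4 and only the groups compared 3. The Wald test gave 1 for cdb330 in bias-minimized Adults (0), and only the groups compared 1 for cdb263 cdb328 on cdb494 (5). Leaving out 1 library gave 5 to 9 for cdb328 at L4, 3 to 6 for Adult against L4 in cdb328, 1 to 4 for the stage difference of cdb330 and 3 to 6 for cdb328 on cdb530.

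A fold change counted as reversed if it changed sign and was called in either fit. An arm ratio counted if it changed sign and both its difference and its shift exceeded the larger group SD. By this rule directions reversed only with another scaling, apart from 1 arm ratio. With spike-ins these were, for cdb330 at L4, mir-48 3p* (0.54) and mir-84 3p* (0.60); for cdb328 against cdb330 at L4, let-7 5p (-0.91) and mir-48 5p (-0.67), and in bias-minimized Adults mir-48 5p (-0.63); for wild-type Adult against L4, mir-48 5p (-0.64); and for tagged, mir-241 3p* (1.56), mir-241 5p (1.96), mir-48 3p* (1.90), mir-794 3p* (1.13) and mir-794 5p (1.88). With total counts they were let-7 5p (-0.27) and mir-48 5p (-0.037) for cdb328 against cdb330 at L4, and mir-48 5p (-0.43) for wild-type Adult against L4. The arm ratio of mir-241 for cdb263 cdb328 on cdb494 changed from 0.71 to -0.57 with a pseudocount of 5. In 9 further settings an arm-ratio difference moved by more than the larger group SD without counting as reversed. Among these, a pseudocount of 5 turned the difference negative for mir-241 on cdb496 (-0.49) and for mir-84 on cdb530 (-0.29). Smaller sign changes were not counted, such as that of mir-241 in bias-minimized cdb328 Adults without wild-type replicate 3 (0.077). The cause was not tested.

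With the replicate number as a block, 9 family arms were called for cdb328 at L4, 6 in NEBNext Adults and 5 in bias-minimized Adults, where the numbers pair the libraries. The block moved 2 of 333 calls past the threshold, both of mir-48 5p in unpaired NEBNext fits (adjusted p 0.0567 for Adult against L4 in cdb328 and 0.0525 for cdb328 against cdb330 at L4), and changed no other call.

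Depth limits the rare arms. mir-794 3p* and mir-795 3p* did not pass the filter in bias-minimized libraries, and let-7 3p* not in the bias-minimized Adults. mir-794 5p rests on 2 to 10 reads per drsh-1 mutant library of the mir-80 series. Groups of 2 libraries share their estimate of spread with the other groups of a fit. Exact tests of 3 against 3 cannot go below 0.1.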
